A study of Triticum turgidum subsp. durum with 24 samples.

Results

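Starch branching enzymes cut an α-1,4-linked glucan chain and rejoin the cut piece through an α-1,6 bond, which makes the branch points of amylopectin. Cereals carry the families SBE1 and SBE2, and SBE2 is further divided into the paralogs SBE2a and SBE2b. In maize endosperm the SBE1 enzyme is known to act preferentially on long, lightly branched chains and the SBE2 enzymes to transfer shorter chains, and reduced SBE2 activity in cereal grains is known for raising the apparent amylose content of the starch. Starch synthases elongate the chains, and isoamylase-type debranching enzymes trim misplaced branches.

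The genes described here were all rows of the expression tables whose gene identifier was listed for a homeolog (the A or B genome copy of a gene) of SBE1.1, SBE1.2, SBE1.3, SBE2a or SBE2b in the starch gene list of the study. Of 66559 genes in the tables, 9 were members, from 10 listed entries, because SBE1.3-A1 was listed under the identifier of SBE1.1-A1 as another of its transcripts and had no row of its own. Dissected endosperm of wild-type plants of the durum wheat variety Kronos was sampled at 6, 8, 10, 13, 15, 18, 20 and 30 days post-anthesis (dpa), with 3 replicates per timepoint and 24 poly-A RNA-seq libraries. Plants were grown in a controlled environment without treatment, each replicate pooled several endosperms of 1 spike, and 1 plant could give spikes for several timepoints. Fewer endosperms were pooled at later timepoints, so pool size and developmental stage cannot be told apart.

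The positions of the members on the Svevo.v1 assembly place SBE1 on group 7 and SBE2 on group 2 chromosomes. SBE1.1-B1 (TRITD7Bv1G229250, chr7B:706920175-706925374), SBE1.2-B1 (TRITD7Bv1G229260, chr7B:706930398-706949832) and SBE1.3-B1 (TRITD7Bv1G229280, chr7B:706994302-707000075) lay next to one another, 5023 and 44469 bases apart. On chromosome 7A the gene model of SBE1.1-A1 (TRITD7Av1G275430, chr7A:715567745-715597915) spanned 30171 bases and enclosed the whole of SBE1.2-A1 (TRITD7Av1G275440, chr7A:715576446-715589295), whereas the SBE1.1-B1 model spanned 5200 bases. The tables hold the canonical transcript of that identifier only, and whether it took up reads of SBE1.3-A1 was not tested. SBE2a-A1 (TRITD2Av1G178500, chr2A:498801189-498812928) and SBE2b-A1 (TRITD2Av1G189770, chr2A:527773812-527795107) were 28960883 bases apart, and SBE2a-B1 (TRITD2Bv1G146930, chr2B:435830768-435840566) and SBE2b-B1 (TRITD2Bv1G155490, chr2B:460689380-460710392) were 24848813 bases apart. The counted transcripts had coding lengths of 1890 to 2541 bases.

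SBE2b was also the member chosen for a separate qRT-PCR assay, whose values were not analysed here. The study reports its primer pair as not specific to either homeolog, whereas the counts below are given for each homeolog. Whether the pair amplifies SBE2b alone was not tested here. Both primers are written 5′ to 3′.
SBE2b_F: aaacaatgcagacggttcgc
SBE2B_R: acctcatcccgaaagtttgc

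Estimated counts totalled 56180606 to 115800050 per library, and every member had 416 to 111890 counts in every library, so all 9 passed the minimum of 10 counts in 3 libraries that left 44240 genes for testing. Levels are given as TPM, a transcript abundance relative to the whole library that is corrected for transcript length and can be compared between genes. The 8 endosperm marker genes (GBSSI, BT1.1, AGPS1 and cAGPL copies) summed to 385 to 652 TPM at 6 dpa, 2225 to 6503 TPM at 10 dpa and 2256 to 2702 TPM at 30 dpa, with no marker at 0. GBSSII-B1, the pericarp and vegetative form of granule-bound starch synthase, was at 4.47 to 6.22 TPM at 6 dpa, 8.71 to 14.5 TPM at 10 dpa and 0.208 to 0.436 TPM at 30 dpa, and the 6 markers of transient starch in green tissue summed to at most 3.61 TPM. Replicate 1 at 10 dpa and replicate 3 at 13 dpa stood apart from their groups. The 9 members summed to 548 TPM in the first of these, against 1378 and 1262 TPM in the other 10 dpa libraries, and to 635 TPM in the second, against 1340 and 1024 TPM. The endosperm marker sum was also lowest in these libraries within their timepoints, at 2225 and 2704 TPM, and its part in the SBE values was not tested. Replicate 3 at 8 dpa was low in a similar way. Its members summed to 348 TPM, against 522 and 644 TPM, and its marker sum was 1401 TPM, against 1745 and 2592 TPM. It is not among the libraries said below to stand apart, which are replicate 1 at 10 dpa and replicate 3 at 13 dpa. In such bulk samples, fewer cells of a type and less RNA per cell cannot be told apart.

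SBE2a-A1 was the most abundant SBE transcript in every library of 6, 8 and 10 dpa. SBE2a-A1 was at 68.4, 72.3 and 74.5 TPM in the 6 dpa libraries, at 181, 355 and 352 TPM at 10 dpa, at 207, 188 and 156 TPM at 20 dpa and at 96.7, 99.8 and 110 TPM at 30 dpa. SBE2a-B1 was at 47.5, 49.8 and 46.9 TPM at 6 dpa, at 115, 288 and 266 TPM at 10 dpa and at 65.3, 67.2 and 79.6 TPM at 30 dpa. Both copies were highest on average at 10 dpa, but with replicate 1 well below the other 10 dpa libraries the ranges from 10 to 20 dpa overlapped between neighbours in the order of means. At 30 dpa both lay below all 10 dpa libraries and above all 6 dpa libraries. The range between the highest and lowest mean was 4.13-fold for SBE2a-A1 and 4.64-fold for SBE2a-B1.

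For SBE2b, the paralog that is mainly an endosperm enzyme in maize, the early rise of the A copy was steeper than that of SBE2a. The B copy was nearer to SBE2a, and the difference between the paralogs was not tested. SBE2b-A1 was at 30.7, 17.1 and 18.4 TPM at 6 dpa, at 92.0, 312 and 262 TPM at 10 dpa, at 169, 209 and 260 TPM at 18 dpa and at 114, 103 and 116 TPM at 30 dpa. SBE2b-B1 was at 34.8, 34.6 and 28.6 TPM at 6 dpa, at 80.9, 217 and 220 TPM at 10 dpa and at 68.2, 53.4 and 61.3 TPM at 30 dpa. The A copy rose from the lower to the higher copy in this interval, and its 30 dpa libraries overlapped the range of its 10 dpa libraries because of the low replicate 1, whereas the B copy was lower in every 30 dpa library than in any 10 dpa library. From the lowest to the highest mean the range was 10.1-fold for SBE2b-A1 and 5.29-fold for SBE2b-B1.

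SBE1.1 followed another course, with its lowest values at 6 dpa and its highest at 30 dpa in both copies. SBE1.1-A1 was at 11.8, 13.2 and 12.2 TPM at 6 dpa, at 18.5, 64.0 and 43.7 TPM at 10 dpa, at 149, 157 and 122 TPM at 20 dpa and at 222, 206 and 217 TPM at 30 dpa. SBE1.1-B1 was at 8.97, 10.7 and 10.0 TPM at 6 dpa, at 22.6, 63.3 and 43.0 TPM at 10 dpa, at 112, 122 and 93.5 TPM at 20 dpa and at 125, 121 and 128 TPM at 30 dpa. All 30 dpa libraries of the A copy were above every earlier library, while the B copy at 30 dpa overlapped the 20 dpa range. The mean of the A copy rose 17.4-fold and that of the B copy 12.6-fold from 6 to 30 dpa.

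SBE1.2 and SBE1.3, which are further SBE1 genes of the same chromosome region, were low and did not share the late maximum of SBE1.1. SBE1.2-A1 was at 4.68, 4.29 and 3.90 TPM at 6 dpa, at 12.2, 31.4 and 27.3 TPM at 10 dpa and at 9.61, 12.7 and 16.2 TPM at 30 dpa. SBE1.2-B1 was at 1.74 to 1.91 TPM at 6 dpa, at 9.33 to 20.6 TPM at 10 dpa and at 7.18 to 11.2 TPM at 30 dpa. SBE1.3-B1 was at 5.29, 5.14 and 4.47 TPM at 6 dpa, at 16.4, 27.0 and 26.6 TPM at 10 dpa and at 7.48, 6.10 and 8.35 TPM at 30 dpa. The highest mean TPM was at 18 dpa for SBE1.2-A1, at 13 dpa for SBE1.2-B1 and at 10 dpa for SBE1.3-B1. These maxima do not separate the genes in time. From 10 to 20 dpa the TPM ranges of both SBE1.2 copies overlapped between neighbours in the order of means. With the scaling between libraries used for the tests below (TMM), the highest mean of each of these genes was at 18 dpa. In TPM, only for SBE1.3-B1 were the 10 and 30 dpa libraries apart.

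**Figure D1:**
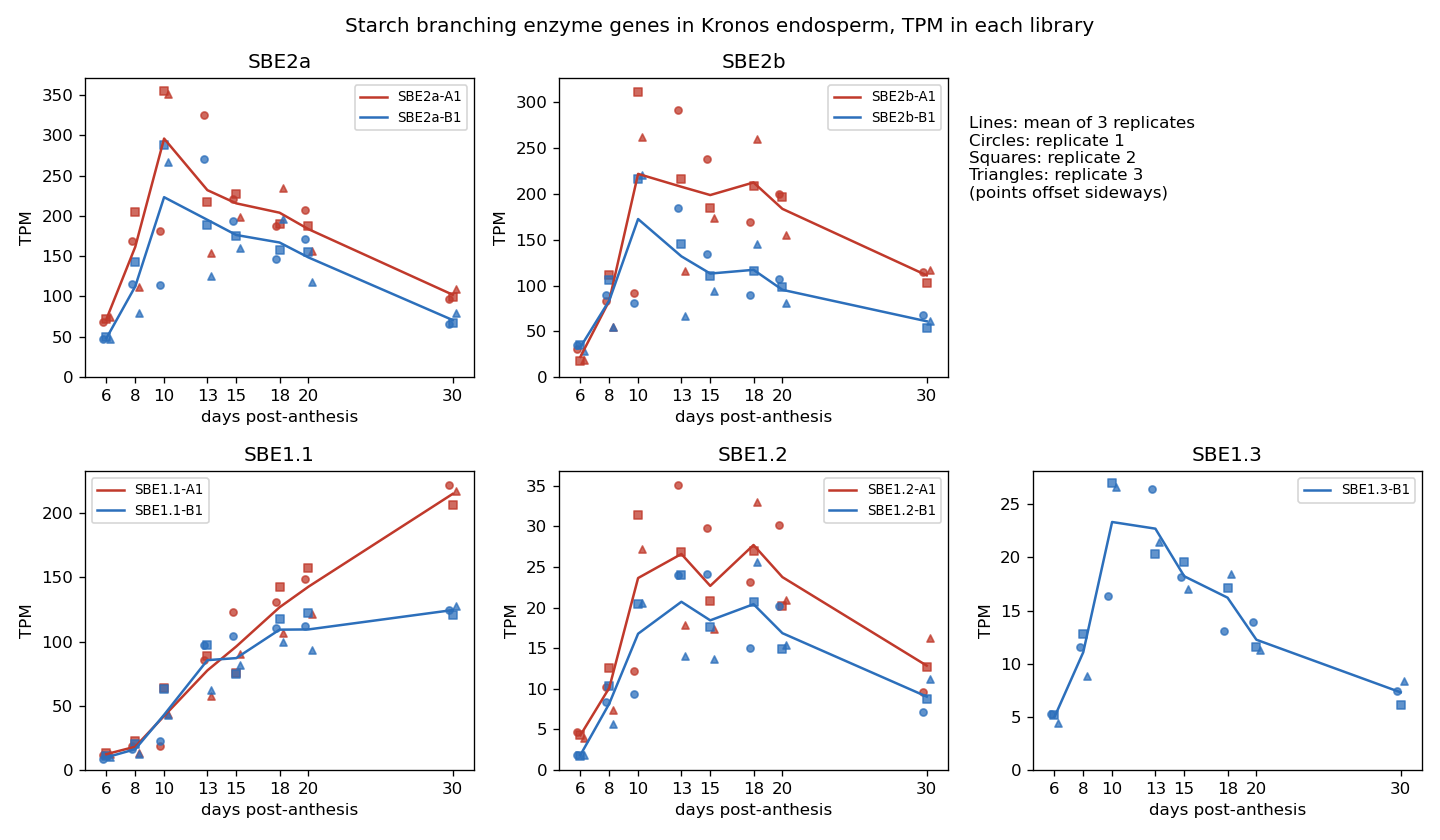
TPM (vertical axes, each from 0) of each starch branching enzyme gene against days post-anthesis, with 1 point per library, A copies in red, B copies in blue and lines through the means of 3 replicates. SBE1.1-A1 reaches 206 to 222 TPM at 30 dpa, while SBE2a-A1, at up to 355 TPM at 10 dpa, is at 96.7 to 110 TPM at 30 dpa.

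The question of early SBE2 against late SBE1 was first taken up by summing TPM over each family within a library. The 4 SBE2 genes summed to 175 ± 6.54 TPM (SD, n = 3) at 6 dpa, 914 ± 387 TPM at 10 dpa, 611 ± 90.8 TPM at 20 dpa and 345 ± 22.1 TPM at 30 dpa. The 5 SBE1 genes summed to 33.4 ± 1.45 TPM at 6 dpa, 149 ± 64.4 TPM at 10 dpa, 305 ± 36.4 TPM at 20 dpa and 369 ± 13.3 TPM at 30 dpa. SBE2 thus exceeded SBE1 by 4.96 to 5.56-fold at 6 dpa, 6.39 to 7.15-fold at 8 dpa and 5.69 to 6.82-fold at 10 dpa. The excess was 2.67 to 3.98-fold at 13 dpa, and at 30 dpa SBE2 stood at 0.912 to 0.964 times SBE1.

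As a share of all SBE TPM, SBE1 took 16.1 ± 0.78% (SD, n = 3) in the 6 dpa libraries, 12.8 ± 0.68% in those of 8 dpa and 14.1 ± 1.14% in those of 10 dpa. Its share was 20.1% to 27.3% at 13 dpa, was 33.4 ± 0.99% at 20 dpa and reached 50.9%, 51.8% and 52.3% in the 30 dpa libraries. The 30 dpa libraries were above all others, and the 6, 8 and 10 dpa libraries were below all later ones. The libraries that stood apart in level did not stand apart here in the same way, since 10 dpa replicate 1 had a share of 14.4%, between those of the other 10 dpa libraries, and 13 dpa replicate 3 had the highest of its group. SBE1.1 carried the late SBE1 share, with 47.6 ± 1.28% of all SBE TPM at 30 dpa against 7.87 ± 1.22% at 10 dpa. The SBE2a share was 49.9 ± 3.73% at 10 dpa and 24.2 ± 1.39% at 30 dpa, and the SBE2b share 36.1 ± 3.89% and 24.1 ± 1.28%. These shares are descriptions, and no test was run on the sums.

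**Figure D2:**
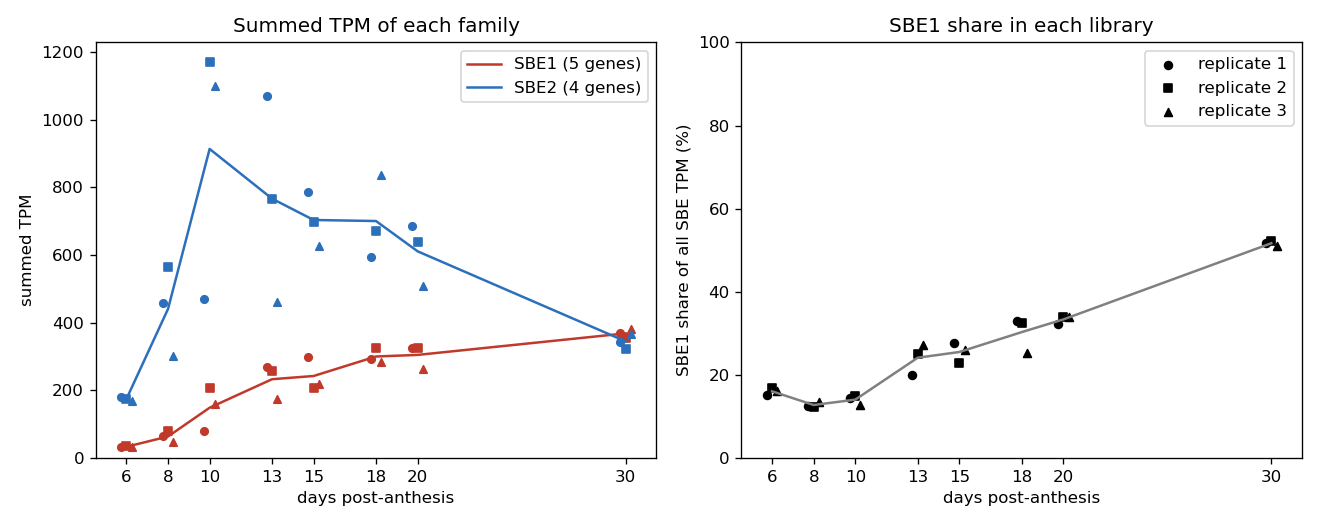
Left, summed TPM of the 5 SBE1 genes (red) and the 4 SBE2 genes (blue) against days post-anthesis, with a point per library and lines through the means. Right, the SBE1 share of all SBE TPM in each library (%), which is at most 16.8% up to 10 dpa and at least 50.9% at 30 dpa.

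Whether single genes of the families changed unequally was tested with the log2 ratio of their TPM within a library, which does not depend on the scaling between libraries. SBE1.1-A1 was at 0.103 to 0.180 times the level of SBE2a-A1 at 10 dpa, at 0.719 to 0.838 times at 20 dpa and at 1.98 to 2.29 times at 30 dpa, so the order of the 2 genes was inverted in all 3 replicates of the last timepoint. The mean log2 ratio rose by 3.99 ± 0.22 (SE) from 10 to 30 dpa for this pair, and by 3.34 ± 0.25 for SBE1.1-A1 to SBE2b-A1. In the B genome it rose by 3.20 ± 0.16 for SBE1.1-B1 to SBE2a-B1 and by 3.02 ± 0.22 for SBE1.1-B1 to SBE2b-B1. Each of these 4 ratios differed among the 8 timepoints when timepoints were permuted over the libraries (permutation test on the F statistic, p = 1e-05, which is the smallest value 100000 permutations allow, 10 ratios tested in all). How often ratios of other gene pairs would differ in this way was not tested. Even between A and B copies of the starch list, 85.5% of 55 ratios changed with time by another test (limma, given below). These p-values therefore do not set the 4 pairs apart from other genes. Between 10 and 30 dpa alone the groups did not overlap, and the exact two-sided permutation test gave p = 0.1, the smallest that 3 against 3 libraries allow.

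The other 6 of the 10 ratios were added after the values were seen. SBE1.1 also separated from its own paralogs, with mean log2 ratios that rose from 10 to 30 dpa by 3.32 for SBE1.1-A1 to SBE1.2-A1, 2.47 for SBE1.1-B1 to SBE1.2-B1 and 3.29 for SBE1.1-B1 to SBE1.3-B1 (p = 1e-05 each, permutation test). The ratio of SBE1.2 to SBE2a rose from 10 to 30 dpa by 0.67 ± 0.17 for the A copies and 0.73 ± 0.16 for the B copies. It also differed among all timepoints (permutation test on the F statistic, p = 4e-05 for the A and 1e-05 for the B copies). Its mean log2 value was already -3.11 (A) and -3.20 (B) at 13 dpa, against -3.01 and -2.97 at 30 dpa. Between 10 and 30 dpa alone, the exact permutation test gave p = 0.1 for each pair named so far, the smallest possible. For SBE1.3-B1 to SBE2a-B1 the timepoints did not differ beyond the spread between replicates (p = 0.29, permutation test), and the change from 10 to 30 dpa was -0.09, with a 95% interval of -0.49 to 0.32 from the spread within timepoints.

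**Figure D3:**
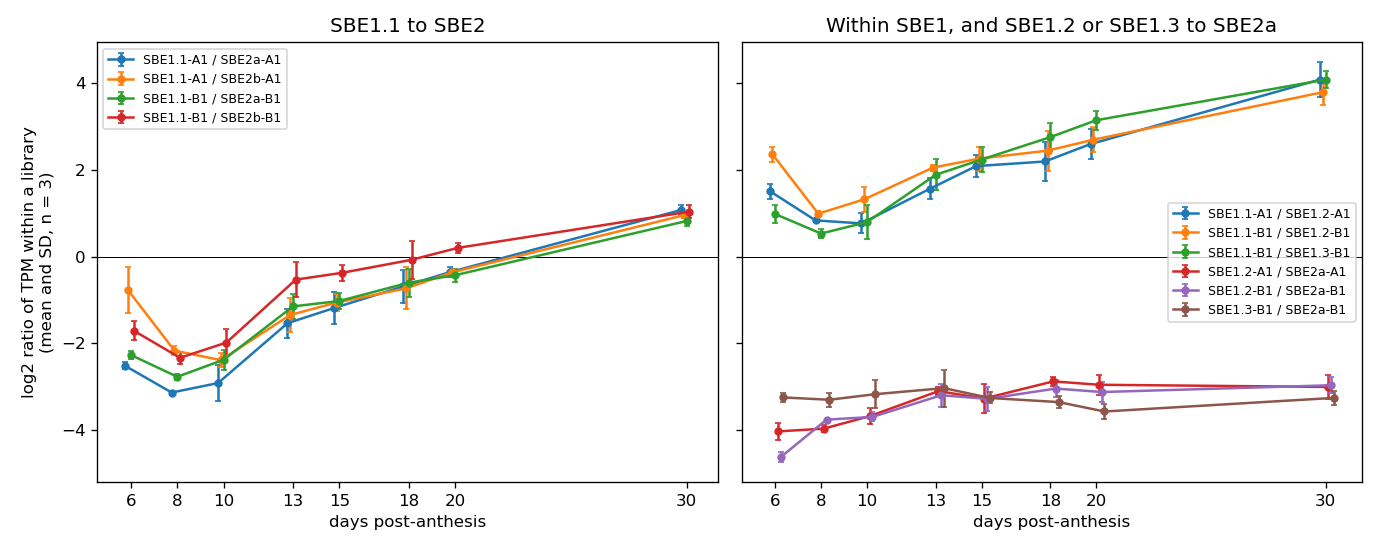
Mean log2 ratio of TPM between pairs of SBE genes in the same library against days post-anthesis, with SD over 3 replicates as bars. The 4 ratios of SBE1.1 to SBE2 (left) go from negative at 10 dpa to between 0.82 and 1.07 at 30 dpa, and the ratio of SBE1.3-B1 to SBE2a-B1 (right) stays near its 10 dpa value of -3.18.

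Changes of each gene between timepoints were assessed by the quasi-likelihood test of edgeR on the counts, with scaling factors by the trimmed mean of M-values (TMM), a Benjamini-Hochberg adjusted p of at most 0.05 and a fold above 1.5. From 6 to 10 dpa all 9 members rose, where 17.6% of all genes tested rose. The log2 fold changes ran from 1.87 ± 0.36 (SE) for SBE1.1-A1 (edgeR adjusted p = 0.00049) to 3.36 ± 0.45 for SBE2b-A1 (edgeR adjusted p = 1.2e-05). In TPM every 10 dpa library was above every 6 dpa library for all 9 members, which held for 17.3% of the genes tested. The median over the members was 2.34 on the log2 scale, against 0.0 over all genes tested.

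Within this interval, 5 members rose from 6 to 8 dpa, where 2.57% of all genes rose: both SBE2a copies, SBE2b-A1, SBE1.2-B1 and SBE1.3-B1. SBE1.1-A1 had a log2 fold change of 0.51 ± 0.35 and SBE1.1-B1 of 0.68 ± 0.31 at this step, and neither passed the test (edgeR adjusted p = 0.51 and 0.27). How many members passed this first step was not stable, since 7 did under DESeq2, 8 with only the 6 libraries compared, 2 without 6 dpa replicate 2, 6 dpa replicate 3 or 8 dpa replicate 2, and 3 without 8 dpa replicate 1. From 8 to 10 dpa all 9 rose, with 7.54% of all genes, at log2 fold changes of 1.03 to 1.56. This count was 2 without 8 dpa replicate 1, 8 dpa replicate 3 or 10 dpa replicate 2, and 5 without 10 dpa replicate 3.

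From 10 to 13 dpa only SBE1.1-B1 rose (log2 fold change 1.16 ± 0.31, edgeR adjusted p = 0.024), where 4.90% of all genes rose. SBE1.1-A1 had a log2 fold change of 1.06 ± 0.35 that did not pass the test (edgeR adjusted p = 0.062). This step was likewise not stable, with 2 members called under DESeq2, with library totals only, in limma and without 10 dpa replicate 2. It had 0 with only the 6 libraries compared and on leaving out 10 dpa replicate 1, 10 dpa replicate 3, 13 dpa replicate 1 or 13 dpa replicate 2. Between 13 and 15, 15 and 18, and 18 and 20 dpa no member was called by edgeR or by DESeq2, in steps where 0.0136%, 0% and 0.208% of all genes rose and 0.0497%, 0% and 0.00452% fell, and 1, 0 and 0 members had an unadjusted edgeR p under 0.05. Over the whole filling period from 10 to 20 dpa, both SBE1.1 copies rose, by 2.53 ± 0.37 and 2.11 ± 0.32 on the log2 scale (edgeR adjusted p = 4.1e-05 and 5.4e-05), where 18.2% of all genes rose. No member fell with TMM, where 15.1% of all genes did. With library totals only 3 members fell (SBE1.3-B1, SBE2a-A1 and SBE2b-B1), where 43.4% of all genes fell, and in limma on TPM 1 fell (SBE1.3-B1), where 43.5% did.

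From 10 to 30 dpa, the last timepoint, at which the grain had turned yellow, the same members rose. SBE1.1-A1 rose by 3.54 ± 0.39 (edgeR adjusted p = 4.8e-07) and SBE1.1-B1 by 2.72 ± 0.33 on the log2 scale (edgeR adjusted p = 1.4e-06), and these 2 of 9 stood where 20.2% of all genes rose. No member fell, where 22.5% of all genes fell, and 1 member (SBE1.3-B1, -0.48 ± 0.21) had an unadjusted edgeR p under 0.05 in that direction, with 0 calls by DESeq2. In TPM, 2 members were higher in every 30 dpa library than in any 10 dpa library (7.96% of all genes tested) and 4 were lower (SBE1.3-B1, both SBE2a copies and SBE2b-B1), where 63.0% of all genes were. The SBE2 genes lay between -0.47 ± 0.32 for SBE2a-B1 and 0.20 ± 0.41 for SBE2b-A1, with edgeR adjusted p from 0.24 to 0.72. Against 6 dpa, all 9 members were still called higher at 30 dpa, by 1.81 to 5.42 on the log2 scale, where 28.7% of all genes rose. With library totals only 5 of 9 were called higher (8.23% of all genes), and on log2(TPM + 0.1) in limma 6 of 9 (9.72%).

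The fall of SBE2 after 10 dpa that the TPM values show depended on the scaling between libraries. TMM factors went from 1.55 to 1.83 at 6 dpa and 1.18 to 1.49 at 10 dpa to 0.486 to 0.538 at 30 dpa, so that late libraries were scaled upward, and on this scale the highest mean of all 4 SBE2 genes was at 18 dpa in place of 10 dpa. With library totals only, the median of all genes tested was itself -1.41 from 10 to 30 dpa. On that scale 7 members fell, where 62.7% of all genes fell, and on log2(TPM + 0.1) in limma 6 fell, where 57.8% of all genes fell and their median was -0.96. SBE2a-A1 had a log2 change of -0.35 ± 0.29 with TMM, -1.47 ± 0.27 in TPM and -1.70 ± 0.22 with totals only, while the signs of SBE1.2-A1, SBE1.2-B1 and SBE2b-A1 flipped between TMM and both other scales. Relative to the median of all genes on each scale, SBE2a-A1 was lower on all 3, whereas SBE2b-A1 was higher on all 3, at 0.20 ± 0.41 with TMM, -0.82 ± 0.38 in TPM and -1.12 ± 0.33 with totals only. Neither distance from the median was tested. The rise of both SBE1.1 copies was called on all 3 scales, at 2.22 ± 0.26 and 1.39 ± 0.22 with totals only, where 6.03% of all genes rose, and at 2.52 ± 0.31 and 1.65 ± 0.27 in TPM, where 6.63% rose.

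**Figure D4:**
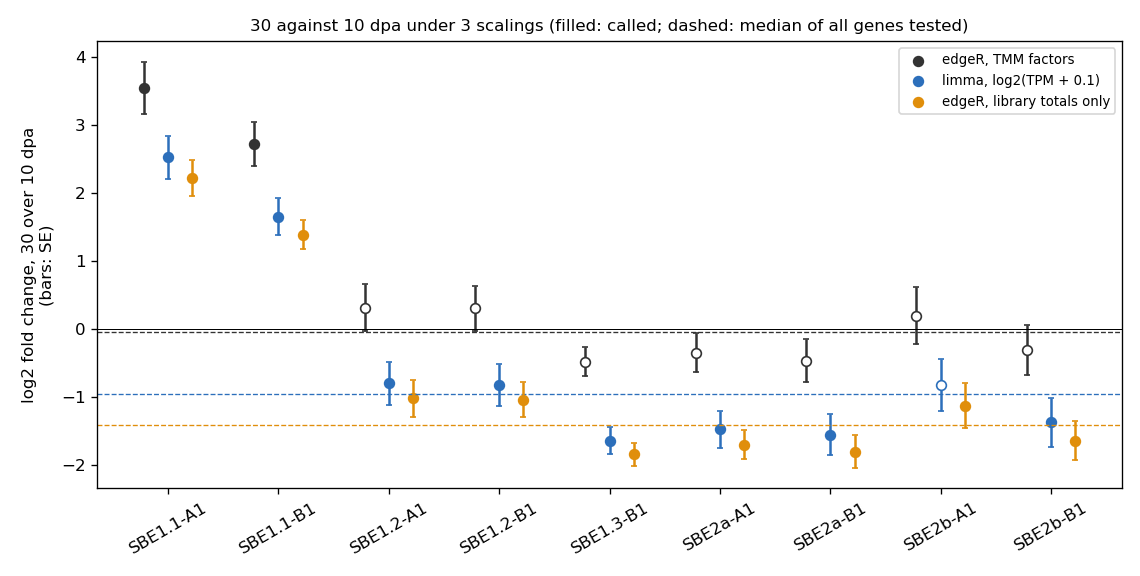
Log2 fold change from 10 to 30 dpa (vertical axis, bars are SE) of the 9 members with TMM factors (black), in log2(TPM + 0.1) (blue) and with library totals only (orange). Filled points passed the test, dashed lines mark the median of all genes tested, at -0.04, -0.96 and -1.41, and the SBE1.1 copies are above these lines on all 3 scales.

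From 20 to 30 dpa no member was called by edgeR, where 3.08% of all genes rose and 7.16% fell. SBE1.1-A1 was the nearest to a call, at 1.01 ± 0.35 (edgeR adjusted p = 0.072), and was the 1 member with an unadjusted p under 0.05. DESeq2 called it higher (DESeq2 adjusted p = 0.024), and so did edgeR without replicate 1 or without replicate 2 of 10 dpa (edgeR adjusted p = 0.035 and 0.049), libraries that enter this comparison only through the shared estimate of spread and the filter. With library totals only 7 members fell in this interval, where 29.3% of all genes fell, and in limma on TPM 4 fell, where 14.9% did.

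Leaving out 10 dpa replicate 1 brought SBE1.3-B1 to a call of lower at 30 than at 10 dpa, at -0.64, and turned SBE2b-A1 to -0.15, and leaving out 30 dpa replicate 3 also gave -0.64 and a call for SBE1.3-B1. Leaving out both libraries that stood apart was a choice made after seeing the data. The same 2 SBE1.1 genes then rose from 10 to 30 dpa. In that setting 2 members fell, SBE1.3-B1 (-0.64, edgeR adjusted p = 0.022) and SBE2a-B1 (-0.75, edgeR adjusted p = 0.017). The shares of all genes called with libraries left out are not given, so these calls have no background of their own. With all libraries, 20.2% of all genes rose and 22.5% fell in this comparison, so the calls do not set these members apart.

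The A and B copies of a gene were compared within each library. The SBE2b pair inverted its order, with the A copy at 0.494 to 0.884 times the B copy at 6 dpa, 0.929 to 1.06 times at 8 dpa, 1.14 to 1.44 times at 10 dpa and 1.87 to 2.00 times at 20 dpa. At 30 dpa it was at 1.68 to 1.92 times. The SBE1.1 pair was at 1.21 to 1.31 in favour of the A copy at 6 dpa, at 0.880 to 0.934 at 13 dpa and at 1.70 to 1.78 at 30 dpa, so that the B copy was the higher one in all 3 libraries at 13 dpa only. The sets of ratios at 6, 13 and 30 dpa did not overlap for SBE1.1.

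SBE2a kept the A copy higher in all 24 libraries, from a mean of 1.49-fold at 6 dpa through 1.19-fold at 13 dpa to 1.45-fold at 30 dpa. SBE1.2 had its largest A bias at 6 dpa, at 1.99 to 2.41-fold, and means of 1.23 to 1.41-fold from 8 dpa on. By limma's moderated F test over timepoints, all 4 pairs changed with time (limma adjusted p = 1.8e-07 for SBE1.1, 5.6e-06 for SBE1.2, 0.0037 for SBE2a and 5.9e-08 for SBE2b). Of all 55 homeolog pairs of the starch list tested, 85.5% changed, so 4 of 4 is near the background. Reads shared by near-identical copies were divided between them by the authors' estimation, which makes these ratios less certain than sums of the copies.

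**Figure D5:**
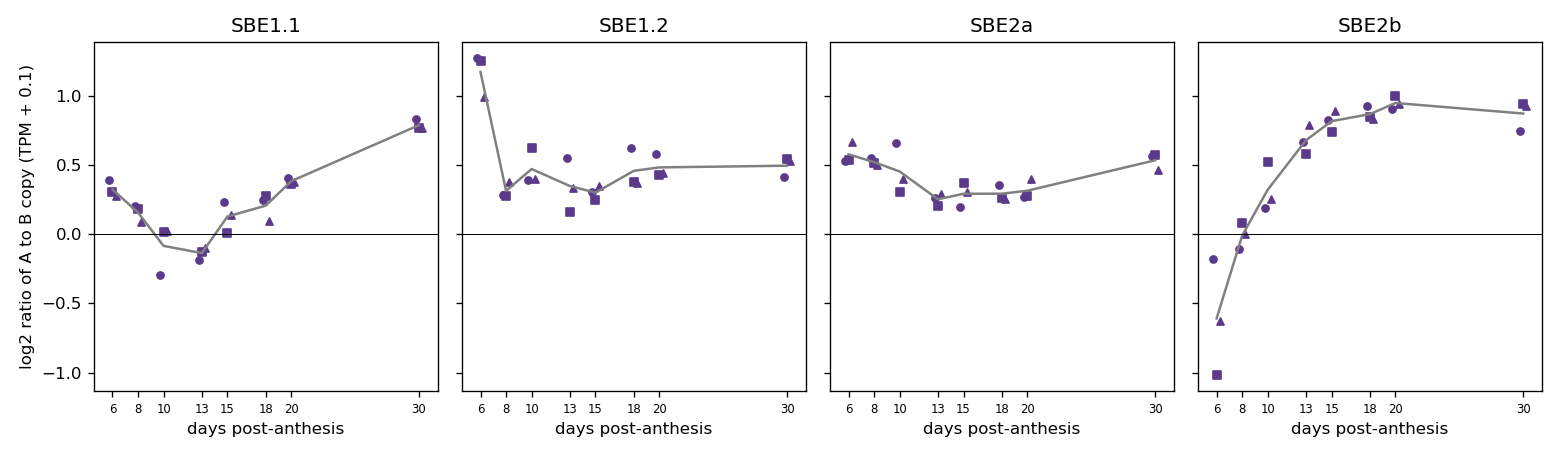
Log2 ratio of the A to the B copy in each library (points, shapes for replicates as in the TPM plot) and its mean (line) against days post-anthesis for the 4 SBE pairs with both copies measured. SBE2b goes from below 0 at 6 dpa to a mean of 0.95 at 20 dpa, and SBE1.1 reaches 0.79 at 30 dpa.

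Likeness of course was measured as Pearson's r of log2(TPM + 0.1) over the 24 libraries among the 12151 genes whose mean reached 10 TPM at any timepoint, as a description in which all points share library and depth. For SBE2a-A1 the most similar gene was SBE2a-B1 (r = 0.99), followed by TRITD5Bv1G129620 (r = 0.98), the plastidial α-glucan phosphorylase gene PHS1-A1 (r = 0.97, rank 3) and SBE2b-B1 (r = 0.97, rank 4). The starch synthase SS2a-B1 was at rank 7, SBE1.3-B1 at rank 17 and the isoamylase ISA1-B1 at rank 21. Of the other copies of these starch genes, ISA1-A1 was at rank 31, but SS2a-A1 was at rank 140 and PHS1-B1 at rank 154. SBE2b-A1, SBE1.2-A1 and SBE1.2-B1 came at ranks 137, 141 and 143, and SBE1.1-A1 at rank 3440 (r = 0.33). These ranks depend on the scaling, since on the TMM scale SBE2b-A1, SBE1.2-A1 and SBE1.2-B1 were at ranks 4, 27 and 19, and SBE1.1-A1 was at rank 2064 (r = 0.75).

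For SBE1.1-A1 the leading genes were TRITD1Av1G144180 (r = 0.99), TRITD4Av1G045640 (r = 0.98) and SBE1.1-B1 (r = 0.98, rank 3). The disproportionating enzyme gene DPE1-B1 was at rank 25, and its A copy DPE1-A1 at rank 440. Of the other SBE1 genes, SBE1.2-A1 was at rank 935 (r = 0.69) and SBE1.3-B1 at rank 1716 (r = 0.30), and on the TMM scale their r was 0.86 and 0.70, at ranks 1472 and 2866.

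The other 20 genes of amylopectin synthesis in the list (starch synthases, isoamylases, ESV1 and LESV) were all tested. From 6 to 10 dpa 12 rose, where 17.6% of all genes did. The 2 that fell were the SS2b copies, at means of only 0.54 TPM (A) and 0.72 TPM (B) at 6 dpa. The share of all genes that fell is not given for this step, so this count has no background beside it. The median log2 fold change of the 20 genes was 1.27, against 0.0 over all genes tested. From 10 to 30 dpa 5 rose and 2 fell, where 20.2% and 22.5% of all genes did, with a median of 0.10 against -0.04. On the TPM scale in limma, 1 rose and 13 fell from 10 to 30 dpa, where 6.63% and 57.8% of all genes did. The median there was -0.93, near the -0.96 of all genes. SS1, which makes short amylopectin chains, rose in both copies from 10 to 30 dpa (0.92 ± 0.32 and 1.23 ± 0.35 on the log2 scale, edgeR adjusted p = 0.024 and 0.0073), but neither passed with library totals only or in TPM, where SS1-A1 was at -0.42 and -0.16 and SS1-B1 at -0.09 and 0.19. SS2a, which elongates intermediate chains, fell in its A copy on all 3 scales (-1.53 ± 0.37 with TMM, edgeR adjusted p = 0.0018) and was with TMM at -0.30 ± 0.39 in its B copy (edgeR adjusted p = 0.55), but this copy fell on both other scales, by 1.63 ± 0.30 with totals only (edgeR adjusted p = 5.7e-05) and by 1.36 ± 0.38 in TPM (limma adjusted p = 0.0034). The isoamylase genes ISA1 and ISA2 rose from 6 to 10 dpa in all copies and lay between -0.22 and 0.39 from 10 to 30 dpa with TMM, with no call. All 4 fell on both other scales, where 62.7% (totals only) and 57.8% (TPM) of all genes fell.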

How the data were processed

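RNA was taken from endosperm of Kronos durum wheat at 8 timepoints with 3 replicates each. The authors pseudoaligned the reads to the canonical transcripts of Svevo v1, 1 per gene, with kallisto (version 0.46.1 in the submitters' processing notes), and deposited estimated counts, unscaled between libraries. The TPM values deposited by the authors come from the same runs, scaled by effective transcript length and within each library. Timepoints were taken from the sample labels.

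Estimated counts were rounded to whole numbers and tested with edgeR 4.0.16 (R 4.3.3) in 1 quasi-likelihood fit of all 24 libraries with timepoint as factor, TMM factors and Benjamini-Hochberg adjustment over 44240 genes (those reaching 10 counts in 3 or more libraries). Ratios of genes used TPM with 0.1 added and 100000 permutations (numpy 2.4.6, scipy 1.17.1), and homeolog ratios were tested with limma 3.58.1 over the 55 pairs of the starch gene list. DESeq2 1.42.0, other scalings, filters and pseudocounts, a replicate block and leaving out each library were the alternatives. Scripts were tested on simulated data. The qRT-PCR values were not used here.

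Members and gene lists were chosen with earlier results of these data known. All 9 members are named, the other amylopectin genes are given as counts with values for SS1, SS2a, ISA1 and ISA2, and the genes most like SBE2a-A1 and SBE1.1-A1 by correlation are named with at most 2 identifiers each. Coordinates come from RefSeq's gene table of the Svevo.v1 assembly, to which 63993 identifiers matched. Nearly all transcript lengths (99.9%) were multiples of 3, so lengths are coding lengths. Replicates of a timepoint came from separate plants. The main edgeR and limma p-values rest on the spread between replicates within timepoints, estimated over all 24 libraries. Apart from the replicate block, the tests took all libraries as independent, although libraries of different timepoints could share a plant.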

Additional observations from a re-analysis of the deposited data

How the results depend on the processing

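The rise of both SBE1.1 copies from 10 to 30 dpa and of all 9 members from 6 to 10 dpa was called under every alternative run on single genes, and with A and B copies summed the counts were 5 of 5 for 10 against 6 dpa, 5 of 5 for 30 against 6 dpa, 1 for 20 against 10 dpa and 1 for 30 against 10 dpa. Members that fell from 10 to 30 dpa numbered 0 with TMM, 7 with library totals only, 6 in limma with 0.1 or with 1 TPM added, 0 to 1 on leaving out single libraries and 2 without both libraries that stood apart. From 20 to 30 dpa, 0 fell with TMM, 7 with totals only, 4 in limma with 0.1 added and 2 with 1 added, and 1 rose under DESeq2, with at least 10 CPM in 3 libraries, with only the 6 libraries compared, without both libraries that stood apart and in 0 to 1 members on leaving out single libraries. From 10 to 20 dpa 4 members rose under DESeq2 and with the 10 CPM filter, against 2, and 2 to 3 on leaving out single libraries. From 6 to 30 dpa 5 rose with totals only and 6 in limma, against 9. Alternatives for the next 4 counts were added after seeing the data. From 6 to 8 dpa 5 rose, against 8 with only the 6 libraries compared, 2 with an absolute log2 fold change above 1.5 and 2 to 7 on leaving out single libraries. From 8 to 10 dpa 9 rose, against 5 of 5 with A and B summed, 2 above a log2 of 1.5 and 2 to 9 on leaving out single libraries. From 10 to 13 dpa 1 rose, against 2 with totals only, in DESeq2, in limma and with the 10 CPM filter, 0 with only 6 libraries, above a log2 of 1.5 and without both libraries that stood apart, and 0 to 2 on leaving out single libraries. From 10 to 20 dpa 0 fell, against 3 with totals only and 1 in limma.

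Signs turned in 3 members from 10 to 30 dpa: SBE1.2-A1 to -1.02 with totals only and -0.80 and -0.76 in limma, SBE1.2-B1 to -1.04, -0.82 and -0.77, and SBE2b-A1 to -1.12, -0.82 and -0.82, and also to -0.15 without 10 dpa replicate 1, with or without 13 dpa replicate 3, in a range of -0.15 to 0.53 on leaving out single libraries. The uncalled change of SBE1.3-B1 to SBE2a-B1 was 0.013 with 1 TPM added, ranged from -0.20 to 0.10 on leaving out single libraries (0.10 with 10 dpa replicate 1 left out, 0.0038 with 30 dpa replicate 2 left out), and was 0.10 without both libraries that stood apart. Beyond the scalings, whose own median shifts are given above, the cause was not tested. The 4 ratios of SBE1.1 to SBE2 stayed between 2.84 and 4.22 with p of at most 2e-05, and 4 homeolog pairs changed in all settings.

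Whether replicate numbers mark the same plant is not stated. Of 84 same-numbered pairs of libraries from different timepoints, 19 had a correlation of deviations over 0.1 (median 0.0166, against -0.00286 for other pairs), and 11 of 24 libraries correlated best with their own number. These values cannot settle it, since a plant gave spikes for only some of the timepoints. With the replicate block, 9 members rose from 6 to 10 dpa, 2 rose and 0 fell from 10 to 30 dpa, 0 were called from 20 to 30 dpa, and the 4 ratios and 4 homeolog calls were the same. Every member had at least 416 counts in every library, well above the filter of 10 counts, and the effect of depth on the calls was not tested.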

Other observations

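Set beside the other amylopectin genes of the starch list, the SBE genes took a larger share of their summed TPM at 30 than at 6 dpa. It was 47.8 ± 0.90% (SD, n = 3) in the 6 dpa libraries and 57.7 ± 1.08% in those of 10 dpa. The share did not grow from 15 to 20 dpa, at 60.7 ± 2.00% in the 15 dpa and 60.0 ± 0.32% in the 20 dpa libraries, and was 64.8 ± 0.78% in those of 30 dpa. The 6 dpa libraries were below and the 30 dpa libraries above all others. Relative to the summed starch synthases (SS1, SS2a, SS2b, SS2c, SS3a and SS3b), SBE transcripts were 1.39 to 1.45-fold as abundant in the 6 dpa libraries, 1.71 to 2.01-fold in those of 10 dpa and 2.34 to 2.50-fold in those of 30 dpa. Relative to the isoamylases ISA1 and ISA2 the values were 3.49 to 3.94-fold, 6.45 to 7.34-fold and 9.18 to 9.66-fold at these timepoints. SBE1 held 16.1 ± 0.78% of the SBE total at 6 dpa and 51.7 ± 0.71% at 30 dpa. These are ratios within a library, given as descriptions with no test.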
